A study of Mus musculus with 48 samples.

Results

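The genes described here encode the subunits of the 26S proteasome and its non-ATPase chaperones, and they were chosen by symbol alone. Protein-coding genes named Psma1 to Psma7, Psmb1 to Psmb10, Psmc1 to Psmc6, Psmd1 to Psmd9 and Psmd11 to Psmd14 gave 36 members among the 38293 genes of the deposited count table. By role, 7 members form the outer α ring of the 20S core and 7 form its inner β ring. A further 3 (Psmb8, Psmb9 and Psmb10) are the inducible β subunits of the immunoproteasome. The 19S cap is represented by 6 ATPases (Psmc1 to Psmc6), 3 other base subunits (Psmd1, Psmd2 and Psmd4) and 8 lid subunits. Psmd5 and Psmd9, the remaining 2, are chaperones of cap assembly and are absent from the finished particle.

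RNA was sequenced from the dorsal vagal complex (DVC), a hindbrain region that receives signals from the gut, and from the mediobasal hypothalamus (MBH) of mice. For each region, total RNA of the homogenate (input) was set beside RNA immunoprecipitated (IP) with ribosomes whose protein S6 was phosphorylated at positions 240 and 244. The mice were male C57/Bl6 animals of 9 weeks, fasted for 6 h and injected intraperitoneally at 10 µL per g. The treatments were saline, AC3174 (a GLP-1 receptor agonist) at 1 µg/kg, AC170222 (a CCK receptor agonist) at 2.5 µg/kg, and the combination of both. Every one of the 16 groups holds 3 libraries, so 12 input and 12 IP libraries stand for each region. The labels also write the second drug as AC710222 and list a dose of 10 µg/kg for it, as well as exenatide, so the dose behind these libraries is uncertain. The sources used here do not give the doses within the combination, the time to dissection or the number of animals behind a sample, so p-values measure the spread between samples, which may in part be technical. No transgene or Cre line is named, and phosphorylated S6 marks a ribosome in any cell type, with higher levels in active neurons.

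The 20S core is a barrel of stacked rings. Its α rings gate the entrance and its β rings hold the active sites that cut proteins into peptides. The 19S cap binds ubiquitin chains, removes them, and unfolds the substrate with a ring of ATPases that threads it into the barrel. Neurons depend on this machine for the turnover of synaptic and damaged proteins, and its subunits are made in fixed proportion, partly under the transcription factor Nfe2l1. After interferon signalling, the inducible β subunits replace their constitutive counterparts in immune cells.

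Total counts per library ran from 21782798 to 191252522. The members together held 0.846% to 0.990% of the counts in DVC inputs, 0.679% to 1.14% in DVC IP libraries, 0.918% to 1.40% in MBH inputs and 0.585% to 1.10% in MBH IP libraries. Of the 48 libraries, 6 had counts for fewer than 12000 genes, and all 6 were IP libraries: AC3174 3 of DVC, and saline 3, AC3174 2, AC3174 3, AC170222 2 and AC170222 3 of MBH. In MBH IP AC3174 3, which detected 6285 genes, 4 members outside the inducible group (Psmc6, Psmd13, Psmd5 and Psmd9) had a count of 0. Among the inputs, MBH saline 2 stood apart, with a summed member level of 14832 CPM (counts scaled to library size) against 9268 to 10697 in the other 11. The region labels were checked against marker genes. The 6 markers of DVC neurons summed to 213 to 569 CPM in DVC inputs and to at most 13.4 CPM in MBH inputs, and the 6 detected markers of MBH neurons summed to 185 to 400 CPM in MBH inputs and to at most 31.3 CPM in DVC inputs.

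Promoters of 30 members were found in the RefSeq tables for GRCm38.p6, spanning 250 bases before to 50 bases after the start of transcription. Those of Psmb1, Psmb2, Psmb7, Psmc3, Psmd3 and Psmd7 were not in the tables. A CCAAT box, searched as the letters CCAAT on both strands, was present in 11 of the 30 (36.7%) and in 37.4% of all 32851 promoters. The α ring was picked for display with its results below known. Of its 7 genes, 5 held the box: Psma1, Psma2, Psma3, Psma6 and Psma7. Psma4 and Psma5, which did not hold it, were called higher in DVC IP below, and Psma2, which did, was not. The windows of 4 of the 5 are shown on the strand of the gene, with the box in capitals, as an example of the sequence upstream of this ring.
Psma1, chr7:114276190-114276234, minus strand: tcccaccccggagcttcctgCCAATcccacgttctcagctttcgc
Psma2, chr13:14613168-14613212, plus strand: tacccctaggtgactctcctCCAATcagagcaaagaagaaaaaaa
Psma3, chr12:70974464-70974508, plus strand: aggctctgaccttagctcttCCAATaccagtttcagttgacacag
Psma7, chr2:180042636-180042680, minus strand: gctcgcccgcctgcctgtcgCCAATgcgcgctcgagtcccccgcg

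The antioxidant response element, through which Nfe2l1 acts on proteasome genes, was searched as TGACNNNGC on both strands. It was present in 5 of the 30 promoters (16.7%), those of Psmb5, Psmb6, Psmc6, Psmd12 and Psmd9, and in 12.4% of all promoters. No α-ring promoter held these letters within the window. The 3 matches on the strand of the gene are printed because they belong to catalytic β subunits (Psmb5 and Psmb6) and to a cap chaperone (Psmd9), with the element in capitals.
Psmb5, chr14:54618014-54618062, minus strand: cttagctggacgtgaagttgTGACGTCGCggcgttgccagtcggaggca
Psmb6, chr11:70525328-70525356, plus strand: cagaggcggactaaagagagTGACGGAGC
Psmd9, chr5:123228139-123228187, plus strand: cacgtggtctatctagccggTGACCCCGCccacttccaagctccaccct
The interferon-stimulated response element was searched as its core alone, on both strands. It was found in the promoters of 3 members (10.0%), Psmb3, Psmd4 and Psmd9, against 3.44% of all promoters, and it was not found in these windows for the inducible subunits Psmb8, Psmb9 and Psmb10. A match of letters is a description of the sequence and says nothing of whether a factor binds there.

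In total RNA the subunits of 1 particle differed widely in level. To compare genes, CPM was divided by the length of the main transcript in kilobases, and the means ± SD of the 12 inputs of a region are given. Psmc5, an ATPase of the cap, was the highest member in DVC at 719 ± 74.7 CPM per kb and the second in MBH at 483 ± 70.7. Psmb6, the gene of the caspase-like subunit, was the second in DVC at 432 ± 60.3 and the highest in MBH at 606 ± 162, and its spread in MBH overlapped that of Psmc5. Psma7 followed at 320 ± 48.3 in DVC and 392 ± 83.5 in MBH, next to Psmb2 at 299 ± 46.5 and 414 ± 117, and these neighbours did not differ beyond their spread in either region.

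By role, the constitutive β ring had the highest median in both regions, 202 CPM per kb in DVC and 288 in MBH. The α ring had a median of 145 in DVC and 202 in MBH, the ATPases 176 in both, and the lid 125 in DVC and 156 in MBH. The chaperones Psmd9 (26.5 ± 5.92 in DVC) and Psmd5 (37.9 ± 5.60 in DVC) were the lowest members outside the inducible group in both regions. Leaving out the inducible subunits, the highest and lowest member differed 27.1-fold in DVC and 17.9-fold in MBH, but the lowest was the chaperone Psmd9. Without the inducible subunits and the chaperones, the lowest was the lid subunit Psmd11, at 43.8 ± 7.16 CPM per kb in DVC and 44.4 ± 7.88 in MBH.

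Of the inducible subunits, Psmb10 was clearly present and Psmb8 and Psmb9 were near the floor of detection. Psmb10, the inducible counterpart of Psmb7, reached 59.0 ± 9.92 CPM per kb in DVC inputs and 62.0 ± 15.6 in MBH inputs, against 177 ± 21.3 and 181 ± 13.9 for Psmb7. Psmb8, the counterpart of Psmb5, had a mean of 2.70 CPM per kb in DVC, where single inputs ran from 0.614 to 7.91 CPM, and reached 4.25 ± 2.98 CPM per kb in MBH. Psmb9, the counterpart of Psmb6, reached 1.21 ± 0.992 CPM per kb in DVC and 3.19 ± 4.41 in MBH. In the DVC IP libraries Psmb9 was at 0 in 8 of 12 and Psmb8 in 5 of 12, and in the MBH IP libraries they were at 0 in 5 and 4 of 12. Exons of Psmb9 and the neighbouring gene Tap1 overlap on opposite strands, and the libraries keep no strand, so their reads cannot be told apart.

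The first comparison asks which member transcripts were more or less abundant on ribosomes with phosphorylated S6 than in total RNA of the DVC. In the DVC, 13 of 36 members were higher in IP than in input and 1, Psmc5, was lower (edgeR quasi-likelihood test over 24 libraries, Benjamini-Hochberg adjusted p under 0.05). Across all 18465 genes tested, 20.4% were called, 6.8% higher and 13.6% lower, so the members' share of 36.1% higher lies well above the background. The median log2 difference was 0.31 over the members and -0.37 over all genes. With the sample as a block, which pairs each IP library with the input of the same treatment and number, 6 members were higher and 1 was lower (7.59% of all genes called). The calls that ended under the block were those of Psma5 (adjusted p = 0.123), Psma6 (0.0833), Psmb1 (0.0652), Psmb6 (0.0628), Psmc6 (0.111), Psmd6 (0.220) and Psmd8 (0.172). The calls were uneven within the particle: 9 of the 14 constitutive 20S genes were higher, with a median of 0.55, against 4 higher and 1 lower among the 17 subunits of the cap, with a median of 0.14. No test of the core against the cap was made.

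The α ring carried the most calls. All 7 of its genes had a positive log2 difference and 6 passed, between 0.57 and 0.74, and the mean of the IP libraries exceeded that of the inputs in each of the 4 treatments for all 7. Psma7 (ENSMUSG00000027566, chr2:180036374-180042433 on GRCm38, minus strand) encodes α4, and its CCAAT window is printed above. Its lowest, median and highest level was 274, 476 and 637 CPM in the 12 IP libraries and 223, 270 and 366 CPM in the 12 inputs. Its IP libraries were the higher ones, 10 of 12 lying above every input, though the groups overlapped. The log2 difference was 0.74 ± 0.11 (SE), or 1.67-fold, with an adjusted p of 2.36e-04.

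Psma4, which encodes α3, the subunit whose tail lies over the gate, ran from 104 through 185 to 227 CPM in IP and from 80.2 through 110 to 143 CPM in input. The log2 difference was 0.68 ± 0.14 (adjusted p = 0.00259). Psma3, which encodes α7, ran from 317 through 480 to 612 CPM in IP and from 243 through 293 to 348 CPM in input. In both genes 10 of 12 IP libraries lay above every input and the remaining ones overlapped with the inputs. Psma3 was higher by 0.66 ± 0.12 on the log2 scale (adjusted p = 7.96e-04), but the table also holds a processed pseudogene, Gm13835, with a stretch of 665 bases identical to Psma3, and the way the counting split such reads is not known. Psma1 (0.65 ± 0.15, adjusted p = 0.00559), Psma5 (0.58 ± 0.18, adjusted p = 0.0293) and Psma6 (0.57 ± 0.16, adjusted p = 0.0158) were higher by similar amounts. Psma2, at 0.32 ± 0.12, did not pass (adjusted p = 0.0757).

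In the constitutive β ring all 7 log2 differences were positive and 3 passed. Psmb7 (ENSMUSG00000026750, chr2:38588036-38644087, minus strand) encodes the subunit with trypsin-like activity and had the highest fold among all members. Its level was 162, 356 and 419 CPM at the lowest, median and highest IP library and 159, 194 and 243 CPM at the inputs. Of its 12 IP libraries, 11 lay above every input. The log2 difference was 0.79 ± 0.12, or 1.73-fold (adjusted p = 3.08e-04), and 253 bases of its exons overlap Nek6 on the other strand, whose reads cannot be told apart in that stretch.

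Psmb6, the caspase-like subunit, was higher by 0.54 ± 0.13 (adjusted p = 0.00717), from 326 ± 44.5 CPM in input to 473 ± 109 CPM in IP (mean ± SD, n = 12 each). Psmb1, a structural subunit without an active site, was higher by 0.48 ± 0.12 (adjusted p = 0.00871), from 337 ± 39.5 to 473 ± 110 CPM. Psmb5, the chymotrypsin-like subunit, did not pass at 0.26 ± 0.22 (adjusted p = 0.489), and its IP libraries were spread from 81.6 to 417 CPM around inputs of 172 to 281 CPM. Psmb3 at 0.40 ± 0.20, Psmb4 at 0.17 ± 0.24 and Psmb2 at 0.14 ± 0.17 did not pass either. None of the inducible subunits was called by edgeR or DESeq2, and 1 of the 3 had an unadjusted p under 0.05. Psmb10 had 62.6, 79.9 and 257 CPM at the lowest, median and highest IP library and 56.6, 73.2 and 99.7 CPM at the inputs, a difference of 0.45 ± 0.21 (adjusted p = 0.138). Psmb8 (0, 2.41 and 5.57 CPM in IP, 0.614, 4.04 and 7.91 in input) and Psmb9 (0, 0 and 8.03 CPM in IP, 0, 1.07 and 4.24 in input) were too low for a fold to be read.

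**Figure D1:**
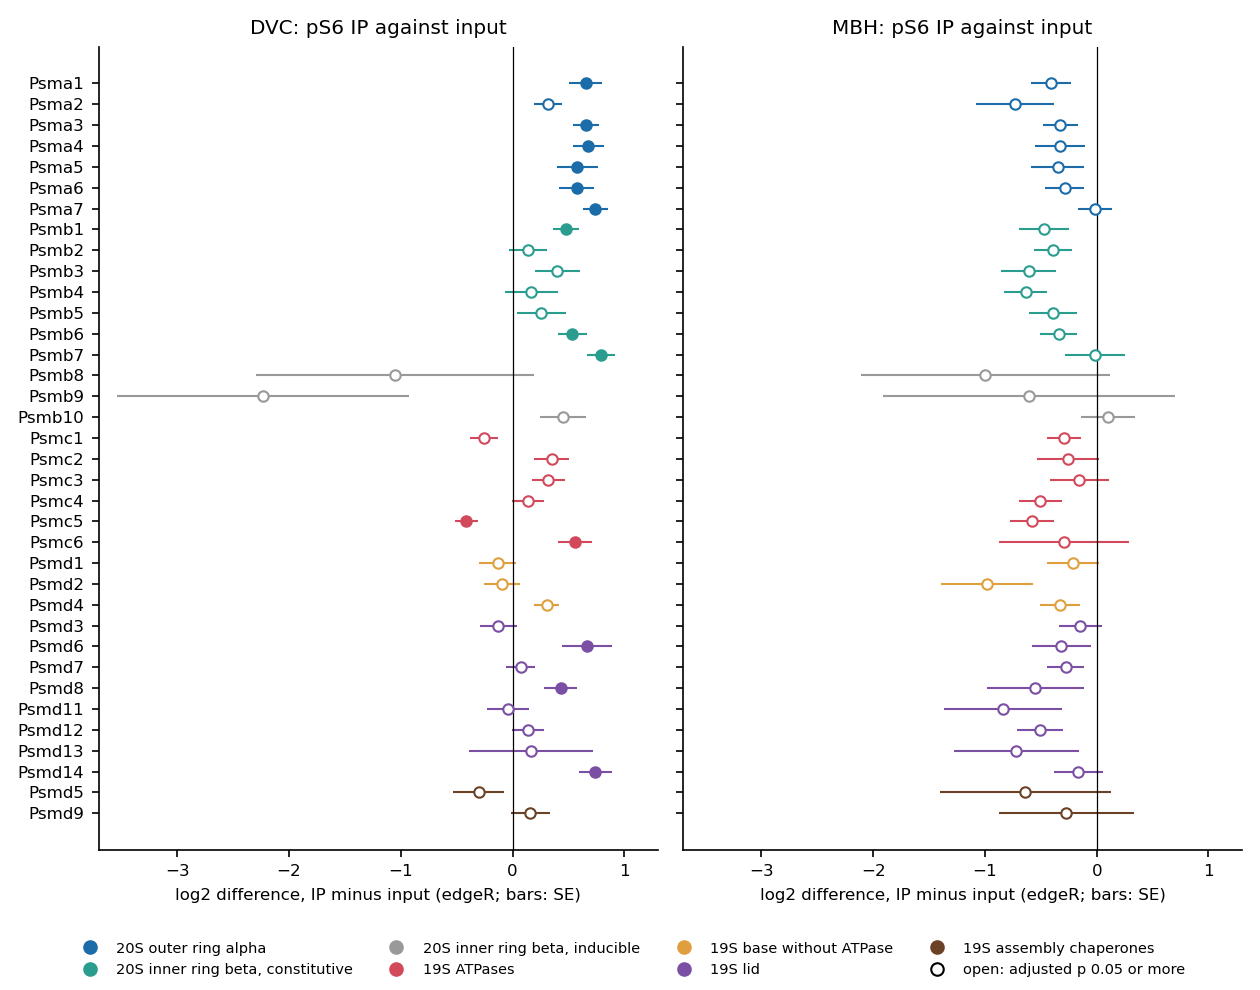
Log2 difference of IP against input for each member in DVC and in MBH, by role, with bars for the SE and filled points for an adjusted p under 0.05. In DVC the α ring and Psmb7 lie furthest to the right and Psmc5 is the 1 filled point on the left, whereas in MBH no point is filled and 35 of 36 lie left of 0.

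In the 19S cap the subunits differed among themselves. Psmd14, the lid enzyme that removes the ubiquitin chain (ENSMUSG00000026914, chr2:61711694-61800376, plus strand), had 219, 362 and 476 CPM at its lowest, median and highest IP library and 173, 202 and 239 CPM at the inputs, and 9 IP libraries exceeded every input. It was higher by 0.74 ± 0.15 (adjusted p = 0.00191). The other lid subunits that passed were Psmd6 at 0.67 ± 0.23 (adjusted p = 0.0436) and Psmd8 at 0.43 ± 0.15 (adjusted p = 0.0467), whereas Psmd3, Psmd7, Psmd11, Psmd12 and Psmd13 lay between -0.13 and 0.17 and did not pass.

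The ATPases form a ring of 6 paralogues and include both directions. Psmc6 had 137, 259 and 357 CPM at its lowest, median and highest IP library and 140, 170 and 198 CPM at the inputs, and 9 of 12 IP libraries lay above every input. It was higher by 0.56 ± 0.15 (adjusted p = 0.0152). Psmc5 (ENSMUSG00000020708, chr11:106256154-106263120, plus strand), the most abundant member in DVC input, had 390, 645 and 1155 CPM at its lowest, median and highest IP library against 758, 884 and 1043 CPM in input. Its IP libraries were mostly the lower ones, 9 of 12 below every input, and 1 (saline 3) above every input. The log2 difference was -0.41 ± 0.10 (adjusted p = 0.00745), and Psmc1, at -0.25 ± 0.12, did not pass (adjusted p = 0.170). In the base, the ubiquitin receptor Psmd4 had 225, 375 and 456 CPM in IP and 234, 288 and 332 CPM in input, a difference of 0.30 ± 0.11 that did not pass (adjusted p = 0.0621). The large scaffold subunits Psmd1 and Psmd2 had -0.13 ± 0.16 and -0.09 ± 0.16. The chaperone Psmd5 ran from 35.6 through 145 to 223 CPM in IP and from 130 through 150 to 197 CPM in input, so the IP libraries lay on both sides of the inputs, and its difference was -0.30 ± 0.23 (adjusted p = 0.419).

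No member separated the 12 IP from the 12 input libraries of DVC completely, and few genes did: 0.298% of all genes had every IP library above every input and 0.672% had every IP library below. The levels of 4 members by library show this, since in each gene some IP libraries fall among the inputs.

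**Figure D2:**
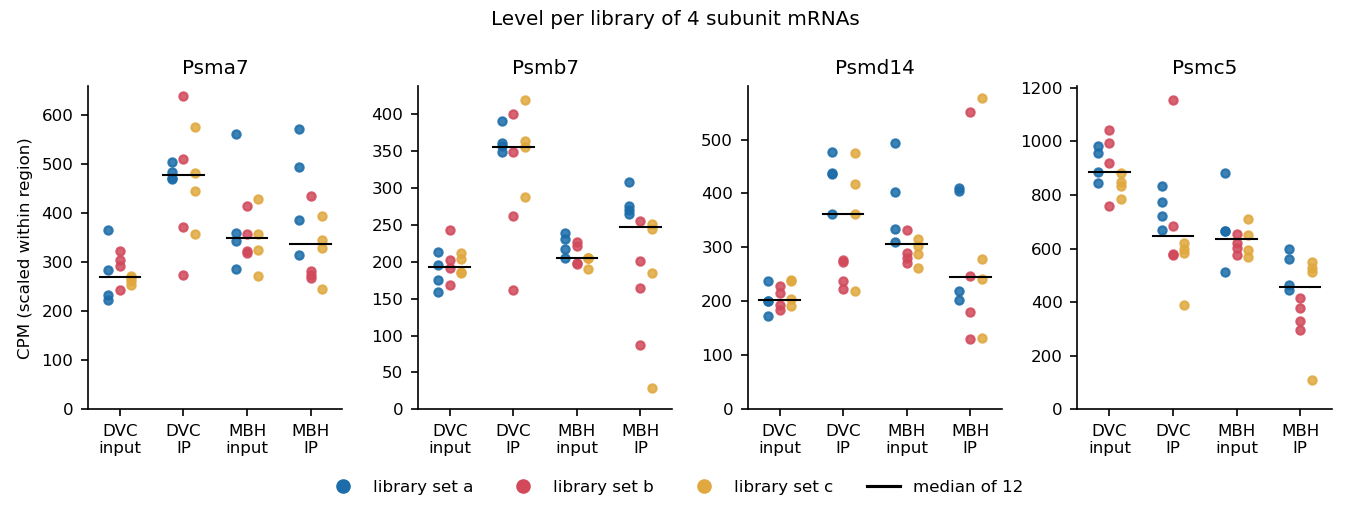
Level of Psma7, Psmb7, Psmd14 and Psmc5 in each of the 48 libraries, in CPM, by region and RNA kind, coloured by library set, with a line at the median of 12. In DVC the IP medians of Psma7, Psmb7 and Psmd14 (476, 356 and 362 CPM) exceed those of the inputs (270, 194 and 202 CPM), and that of Psmc5 (645 CPM) lies under its input (884 CPM).

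Fits to subsets of the DVC libraries gave different counts of calls. The numbers in the library codes divide the samples into 3 sets, and the labels do not say what the sets stand for. Set a holds saline 1 and 2 and AC170222 1 and 2, set b the third saline and AC170222 samples with the first AC3174 and combination samples, and set c AC3174 2 and 3 and combination 2 and 3. The fits within a set held no term for treatment and did not pair an IP library with its input. With 4 IP against 4 input libraries of set a, 23 members were called higher and the median was 0.67 (16.9% of genes called). In set c 6 were called higher and the median was 0.36 (5.86% of genes called). In set b edgeR called 0 (3 at an unadjusted p under 0.05), 24 of 36 values were negative, and the median was -0.15 (0.138% of genes called), although 5 of 7 α-ring genes stayed positive with a median of 0.17. A difference between the sets was not tested. Sets a and c share no treatment, so set and treatment cannot be told apart between them. With the set as a covariate over all 24 libraries, 11 members were higher, 1 was lower and the median was 0.29 (19.9% of genes called).

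**Figure D3:**
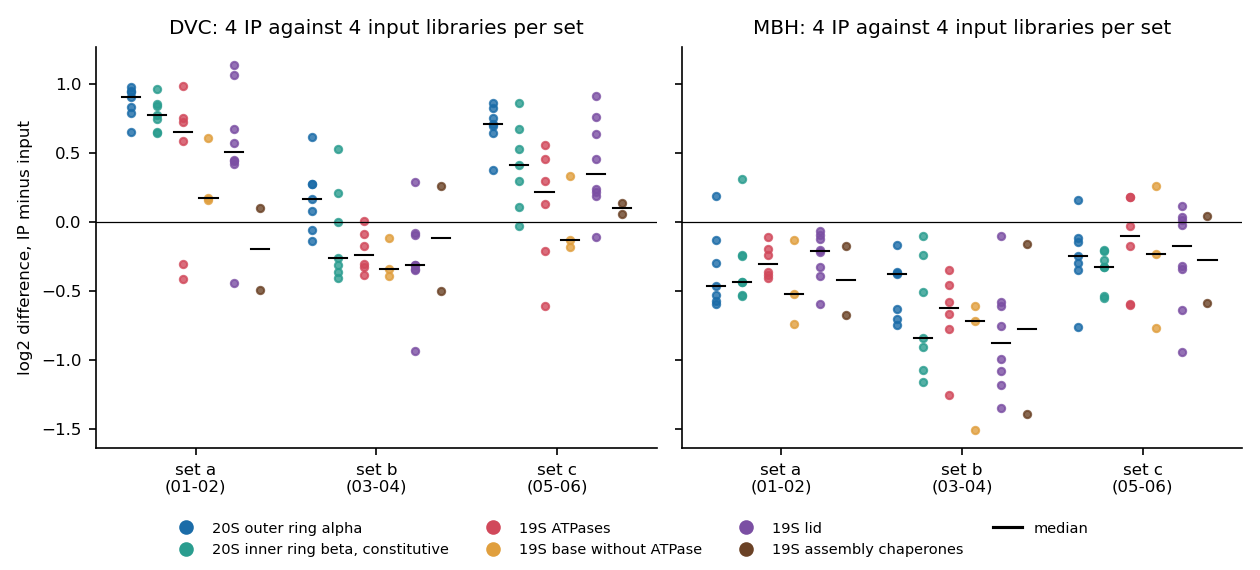
Log2 IP-to-input difference of each member within DVC library sets a, b and c (4 IP against 4 input libraries each), grouped by role without the inducible subunits, with a line at the median of the role. Set a is the highest (23 members called), set c intermediate (6 called) and set b the lowest (none called), and the α ring is the role with the highest median in each set.

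The summed levels of the members, of neuron markers and of astrocyte markers were all lower in the IP libraries of set b than in those of set a. The members summed to 11991 to 12538 CPM in the DVC IP libraries of set a, 6533 to 9720 in set b and 7955 to 11358 in set c, against 7759 to 9448 in all DVC inputs. The 7 neuron markers summed to 27091 to 30427 CPM in set a, 13004 to 18378 in set b and 18127 to 27629 in set c, against a range of 10669 to 13266 in the inputs. Snap25 and Nefl made up most of this sum, with medians of 11028 and 6992 CPM in DVC IP, and Nefl, Snap25 and Stmn2 were the 3 of 7 neuron markers called higher in IP. The synaptic vesicle gene Syt1 went the other way, from a median of 153 CPM in input to 56.7 in IP, and the median of Rbfox3 was 163 in input and 138 in IP, but neither was called. The 6 astrocyte markers summed to 5179 to 6534 CPM in set a, 2881 to 3411 in set b and 2569 to 13304 in set c, against 3069 to 4573 in the inputs, and 1 of them, Gfap, was called higher in IP. Of 5 markers of red blood cells, Hbb-bs and Hbb-bt were called higher in IP. The 6 oligodendrocyte markers had a median sum of 2111 CPM in DVC IP and 7403 in DVC input, and within the sets they reached 1706 to 2310, 3244 to 6657 and 1493 to 2089 CPM. The 7 microglia markers summed to a median of 62.4 CPM in DVC input and 8.57 in DVC IP, where 5 of them had a median of 0. All 5 endothelium markers had a median of 0 in DVC IP, but they were near the floor in input as well, with sums of 1.87 to 32.1 CPM. The part of these markers in the result was not tested, and in such bulk samples fewer cells of a type and less RNA per cell cannot be told apart.

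By treatment, the members outside the inducible group kept a positive median in the DVC. The median log2 ratio of mean IP to mean input over the 33 members outside the inducible group was 0.48 under saline, 0.38 under AC170222, 0.34 under both drugs combined and 0.18 under AC3174. The treatments were spread unevenly over the library sets, so differences between these medians cannot be told apart from differences between sets. All 7 α-ring genes had a ratio above 1 in each treatment, with medians of 0.71, 0.69, 0.59 and 0.51 in the same order. Of the 14 called members, 12 kept the call whichever library was left out, the exceptions being Psmd6 and Psmd8. The calls of Psma1, Psma3, Psma4, Psma7, Psmb7, Psmd14 and Psmc5 also held under DESeq2, its size factors, no filter, a replicate block, the set as covariate and without the library under 12000 genes, and the other 7 calls ended at least under the replicate block. DESeq2 called 11 members higher and 3 lower, among 6091 of the 18465 genes.

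In the MBH the members leaned the other way and none passed. Of 36 log2 differences of IP against input 35 were negative, with a median of -0.34 against -0.28 over all genes. Of all genes 35.2% had a positive value, against 2.78% of the members, so the members' signs were more uniform although the medians lay close together. With DESeq2's size factors in place of TMM, 33 were negative, and Psma7 and Psmb7 turned to 0.10 and 0.09. edgeR called 0 members, with 10 at an unadjusted p under 0.05, and 0.452% of the 17461 genes tested were called, a background at which a count of 0 among 36 says little. DESeq2 called 1 member lower, Psmb4 (adjusted p = 0.0293), against 10.6% of all genes called.

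Psmb4, a structural β subunit, had the smallest adjusted p by edgeR (0.140, log2 difference -0.64 ± 0.19). Its level was 81.3, 184 and 260 CPM at the lowest, median and highest IP library and 229, 282 and 340 CPM at the inputs. Of its IP libraries 10 of 12 lay below every input. Psmc5 had 108, 455 and 597 CPM in IP against 514, 634 and 884 CPM in input, a difference of -0.58 ± 0.20 (adjusted p = 0.192). It therefore had a negative value in both regions, called in the DVC and not in the MBH.

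Psmd2, the scaffold of the cap base, had 6.97, 255 and 467 CPM in IP against 400, 479 and 539 in input, and 10 IP libraries lay below every input. Its difference of -0.98 ± 0.41 did not pass (adjusted p = 0.324), and the lowest of its IP libraries lay far below the rest. Psma7 and Psmb7, the members with the highest values in the DVC, had -0.02 ± 0.16 and -0.01 ± 0.27 in the MBH. For Psmb7, 7 IP libraries lay above every input and 4 below. Psma2, the gene of α2, had 4.94, 272 and 472 CPM in IP against 370, 424 and 744 CPM in input, with 8 IP libraries below every input and a difference of -0.73 ± 0.35 (adjusted p = 0.428). The lid subunit Psmd11 had 0.0350, 66.8 and 130 CPM in IP against 78.1, 128 and 154 in input (-0.84 ± 0.53), and the chaperone Psmd5 had 0, 125 and 273 CPM in IP against 98.9, 189 and 222 in input (-0.64 ± 0.76). In each of the last 3 genes, and in Psmd2, the lowest IP library was AC3174 3, the library with 6285 detected genes. For Psmd5, AC170222 3 was near 0 as well, at 0.0470 CPM. Psmb10 had 39.0, 80.3 and 186 CPM in IP and 68.8, 74.7 and 142 CPM in input, and it was the 1 member with a positive value, 0.10 ± 0.24. The neuron markers summed to a median of 6211 CPM in MBH IP and 6590 in MBH input, and the oligodendrocyte markers to 2056 and 2207 CPM. Without the 5 MBH IP libraries of under 12000 genes, 2 members were called lower, Psmb4 and Psmc4 at -0.72 ± 0.16 (adjusted p = 0.0312), against 1.81% of all genes called in that fit.

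The IP-to-input difference was then compared between the regions, with an interaction term fitted to the 48 libraries together. In this test 10 of 36 members (27.8%) were called, all with a higher difference in the DVC. Of 19416 genes 4.39% were called, 2.33% higher and 2.06% lower, a background not matched for level or spread. The 10 were Psma1, Psma3, Psma4, Psma6, Psma7, Psmb1, Psmb3, Psmb6, Psmd4 and Psmd14, that is 5 of 7 α-ring genes, 3 of 7 constitutive β genes and 2 subunits of the cap. The median was 0.83 over the members and 0.03 over all genes, and 35 of 36 were positive (30 of 36 with DESeq2's size factors). Psma1 had the highest difference, 1.13 ± 0.23 (adjusted p = 0.00308). In the separate fit of each region its IP-to-input difference was 0.65 in DVC and -0.41 in MBH. Psma3 had 1.05 ± 0.20 (adjusted p = 0.00110), Psmb6 0.93 ± 0.21 (adjusted p = 0.00753) and Psma7 0.81 ± 0.19 (adjusted p = 0.00982). A lower input level in DVC than in MBH also raises this difference. Of the 13 members called higher in DVC IP, 9 were also called lower in DVC inputs than in MBH inputs, among them Psma1, Psma3 and Psmb6 but not Psma7. The part of the inputs in the regional difference was not tested.

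With the sample as a block 3 of the 10 calls were kept, those of Psma1, Psma3 and Psmb6 (1.03% of all genes called), and the other 7 had adjusted p from 0.0540 (Psmb1) to 0.163 (Psmb3). The call depended on scaling and on single samples for all but Psma1 and Psma3, which passed in all 5 other settings and with each of the 12 samples left out in turn. With DESeq2's size factors in place of TMM, the median of all genes moved from 0.03 to -0.33 and 2 members were called, Psma1 and Psma3 (3.32% of all genes called), while the members' median stood 0.80 above that of all genes in both scalings. Leaving out the 4 libraries of 1 treatment and number at a time gave 2 to 9 calls.

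In the inputs, which carry no enrichment step, the members were mostly lower in DVC than in MBH. Over the 24 inputs 15 members were lower and 1, Psmc5, was higher, against 21.9% of 18576 genes called, 10.2% lower and 11.7% higher. The members' share of 41.7% lower thus exceeds the background, which was not matched for level or spread. The members' median was -0.27 against 0.10 over all genes. With DESeq2's size factors the split was 14 lower and 3 higher (21.7% of all genes called). By count, 11 of the 14 constitutive genes of the core were lower, with a median of -0.45. Of 17 cap subunits 3 were lower and 1 was higher, with a median of -0.12. The core was not tested against the cap here either.

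Psma1, the gene of α6, had 178, 229 and 259 CPM at the lowest, median and highest DVC input and 273, 337 and 769 CPM at the MBH inputs, on a scale common to the 24 inputs. All 12 MBH inputs lay above the highest DVC input, which held for 2 members, Psma1 and Psmd14, and for 1.43% of all genes. The log2 difference was -0.75 ± 0.12 (adjusted p = 2.12e-04). Psma6, the gene of α1, had 233, 265 and 318 CPM in DVC and 308, 381 and 417 CPM in MBH, a difference of -0.50 ± 0.06 (adjusted p = 1.38e-05). Its groups touched at 1 end, the lowest MBH input lying under the highest DVC input. Psmd14 had 184, 215 and 254 CPM in DVC against 257, 303 and 491 CPM in MBH, a difference of -0.53 ± 0.08 (adjusted p = 8.98e-05).

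Psmc5 was the 1 member called higher in DVC, among 6 with a positive value. It had 788, 932 and 1110 CPM in DVC inputs and 515, 631 and 879 CPM in MBH inputs, a difference of 0.58 ± 0.07, or 1.49-fold (adjusted p = 7.76e-06), with overlapping ends. Its fellow ATPase Psmc1 had 0.28 ± 0.10 and did not pass (adjusted p = 0.0524), and the other 4 ATPases lay between -0.21 and 0.19. Among the remaining called members were Psmb1 at -0.50 ± 0.10, Psmb6 at -0.48 ± 0.10, Psmb2 at -0.47 ± 0.12 and Psmb4 at -0.44 ± 0.08, all constitutive β subunits, and the lid subunits Psmd6 at -0.38 ± 0.08 and Psmd7 at -0.34 ± 0.09.

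The DVC inputs also held more RNA of oligodendrocyte markers (median sum 7403 against 2207 CPM, each on the scale of its region) and of neuron markers (11978 against 6590 CPM), and all 6 astrocyte markers were called higher in DVC (median sum 3580 against 1628 CPM). Their part in the regional difference was not tested. Without MBH saline 2, the input whose members summed highest, 16 members were lower, 3 were higher and the median was -0.22 (24.1% of all genes called).

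The other genes of the pathway give a wider view. A list of 33 genes holds assembly chaperones, activators, deubiquitinases, ubiquitin genes, shuttle factors, the transcription factors and the remaining 19S subunit. In DVC IP 8 of 33 were higher and 1 was lower, with a median of 0.15, against 6.8% higher and 13.6% lower of all genes. Sem1, the small lid subunit outside the naming scheme, was higher by 0.77 (adjusted p = 5.40e-04), from 111 ± 16.6 CPM in input to 195 ± 56.6 CPM in IP. Pomp, the maturation factor of the core, was higher by 0.44 (adjusted p = 0.0273), and Psmg3, a chaperone of α-ring assembly, by 0.87 (adjusted p = 0.0483). Usp14, the ubiquitin-trimming enzyme bound to the cap, was higher by 0.55, the unfoldase Vcp by 0.86, and the polyubiquitin gene Ubb by 0.90. The shuttle Ubqln1 was lower (-1.94, adjusted p = 3.08e-04). With the sample as a block Sem1 (adjusted p = 0.0161) and Ubqln1 (0.00495) were called, and the other genes named here had adjusted p from 0.0548 (Ubb) to 0.255 (Psmg3).

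In MBH IP edgeR called 0 of the 32 pathway genes tested (4 at an unadjusted p under 0.05), with a median of -0.26. Of all genes 0.452% were called there. The regional difference of IP against input was called for Pomp (0.83), Sem1 (1.41) and the ubiquitin gene Rps27a (1.33), 3 of 33 tested against 4.39% of all genes. With the sample as a block it was called for Sem1 (adjusted p = 0.0216) but not for Pomp (0.164) or Rps27a (0.135). Between the inputs, 10 of 33 pathway genes were lower in DVC and 5 were higher, against 10.2% lower and 11.7% higher of all genes. The lower ones included Psme1 and Psme2, which encode the interferon-responsive 11S activator, at -1.10 and -1.01 (adjusted p = 3.32e-08 and 8.11e-06). The transcription factor Nfe2l1 was higher in DVC, by 0.88 (adjusted p = 0.00746).

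No member passed the test with either drug or the combination in any region or RNA kind. The 12 comparisons of a treatment with saline and the 4 tests of non-additivity (the response to both drugs less the added responses to each drug alone) gave 576 tests of members. edgeR called 0 of them, as it called 0.0% of all genes in each comparison. At an unadjusted p under 0.05 stood 16 of the 576 (2.78%), and DESeq2 called 3. Over all genes DESeq2 called 158 to 1144 in a comparison, or 1.07% to 7.23%, so the tools differ on the transcriptome while both called few or no members. The DESeq2 calls were for the near-absent inducible subunits: Psmb9 in DVC IP with AC3174 (listed at 0 in all 3 libraries, against 8.03, 0 and 0 CPM in saline) and in the non-additivity of DVC IP, and Psmb8 in MBH input with the combination.

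The precision differed by RNA kind. The SE of a log2 change with treatment had a median over the 33 members outside the inducible group of 0.16 in DVC input, 0.39 in DVC IP, 0.22 in MBH input and 0.60 in MBH IP. Changes of the size of the IP differences above could thus be told from 0 less readily in IP than in input libraries. Within groups of 3 libraries, the SD of log2(CPM + 1) had a median over the members of 0.19 in DVC input, 0.51 in DVC IP, 0.27 in MBH input and 0.70 in MBH IP, against 0.39 in DVC input, 0.57 in MBH input and 1.93 in MBH IP over all genes of at least 10 CPM. The members' median spread was thus under that of all such genes in these 3 kinds of library, and the same held in DVC IP.

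In DVC input the changes with treatment centred on 0. The median over the 33 members was 0.01 for AC3174, -0.02 for AC170222 and 0.08 for the combination, and single values lay between -0.39 and 0.29. In DVC IP the medians were -0.32, -0.08 and -0.07. Psmc5 in DVC IP had 669, 835 and 1155 CPM in the saline libraries and 686, 584 and 390 CPM with AC3174, a log2 change of -0.64 ± 0.26 that did not pass (adjusted p = 0.677). The groups overlapped, and the lowest value came from AC3174 3, the library with 9925 detected genes. With the library set as a covariate the median over all 36 members turned from -0.34 to 0.09 with AC3174 and from -0.08 to 0.37 with the combination, and still no member was called. Saline shares only set b with AC3174 and with the combination. The values with the covariate therefore rest on the few libraries of that set and carry little information.

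In MBH input the medians over the 33 members were -0.27 for AC3174, -0.25 for AC170222 and -0.28 for the combination. These negative values rested on 1 control: without saline 2 the medians over all 36 members were -0.06, -0.03 and -0.09, against -0.28, -0.27 and -0.32 with it. Psmc1 had the lowest unadjusted p of all 576 tests, 0.00706, with AC3174 in MBH input (adjusted p = 0.560). Its level was 409, 580 and 319 CPM in saline 1, 2 and 3 and 321, 246 and 251 CPM with AC3174, and the highest of the saline values is again that of saline 2. In MBH IP the medians were -0.20, 0.13 and 0.16.

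**Figure D4:**
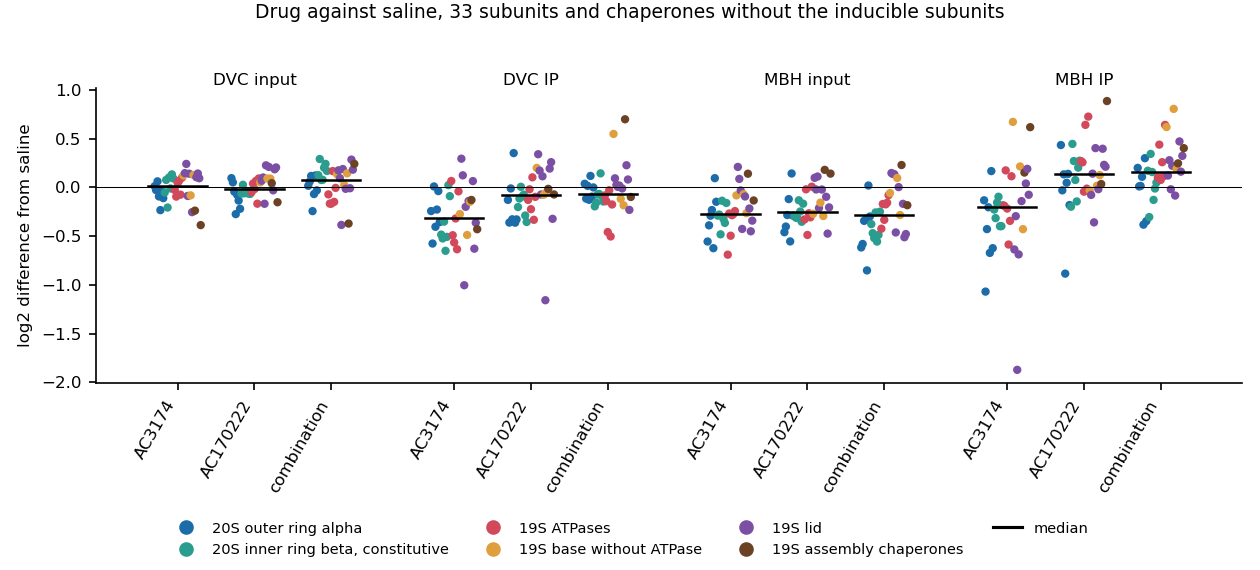
Log2 change against saline of the 33 members outside the inducible group for AC3174, AC170222 and the combination, in the inputs and IP libraries of DVC and MBH, with a line at the median. The DVC input values centre on 0 (0.01, -0.02 and 0.08), the MBH input values lie below 0 with saline 2 included, and none of the points passed an adjusted p under 0.05.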

How the data were processed

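Gene-level RNA abundance was measured in 48 libraries (2 regions, input and IP, 4 treatments, 3 samples each). The deposited table holds raw read counts made by the authors, whole numbers with no normalization. Per the labels' protocols, cDNA was amplified with a SMART-Seq kit and tagmented, which keeps no strand and no molecular identifiers, so amplified copies count as reads. GRCm38, HTSeq 0.6.1p1 and TopHat2 2.0.11 are named in the submitters' processing notes, and the sources used here do not give the annotation or the strand setting. Symbols came from GENCODE M21 on GRCm38, which matched 36429 identifiers.

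Counts were tested with edgeR 4.0.16 in R 4.3.3 by its 2-sided quasi-likelihood F test after filterByExpr and TMM scaling. Benjamini-Hochberg adjustment ran over all genes of a comparison, with 0.05 as the threshold. IP was compared with input in 1 fit of the 24 libraries of each region, the regional difference was fitted on all 48, DVC against MBH on the 24 inputs, and the drugs on the 12 libraries of a region and RNA kind. CPM is on TMM-scaled library sizes within a region unless stated otherwise. Values after ± are SE for log2 differences and SD for levels. The fits were tested on simulated data first. None of 48 replicate pairs held identical counts (lowest chi-square per degree of freedom 130.1). Near copies were sought with BLAST+ 2.17.0 (at least 95% identity over 200 bases): 12 members had 20 copies or overlapping transcripts. Per the labels' protocols, input was an aliquot of the supernatant used for IP, so libraries with the same treatment and number were taken as 1 sample in the replicate block, although their deviations from the group means correlated above 0.1 in 0 of 12 pairs in either region. Alternatives were DESeq2 1.42.0, its size factors within edgeR (called RLE), no filter, a replicate block, the library set as covariate, each library left out, and the libraries under 12000 genes left out. The fits within library sets were added after seeing the data and held no term for treatment or sample.

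Values by library were given, by rule, for the member of each role with the largest log2 difference among those called in DVC (or among all with a mean of at least 1 CPM where none was called), likewise for MBH, and for the inducible subunits. Values of other members were chosen after they were seen. The members, roles and gene lists were chosen with earlier results of these data known. Some pathway genes counted in the list are not reported here by name.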

Additional observations from a re-analysis of the deposited data

Results flagged for a closer look

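The IP-to-input log2 difference was tested between the regions, and it differed for 10 members (edgeR quasi-likelihood interaction test over 48 libraries, Benjamini-Hochberg adjusted p under 0.05), each time with a higher value in DVC than in MBH. In the α ring the difference was 1.13 for Psma1, 1.05 for Psma3, 1.06 for Psma4, 0.92 for Psma6 and 0.81 for Psma7. In the constitutive β ring it was 1.00 for Psmb1, 1.07 for Psmb3 and 0.93 for Psmb6. In the cap it was 0.96 for Psmd14 and 0.69 for Psmd4. The adjusted p ran from 0.00110 for Psma3 to 0.0482 for Psmd4. Psmb3 and Psmd4 kept their calls in 0 of the 5 other settings tried. With the sample as a replicate block the calls of Psma1, Psma3 and Psmb6 were kept. The 7 neuron markers had median sums of 11978 CPM in input and 24355 CPM in IP of DVC, and of 6590 and 6211 CPM in MBH. Snap25 and Nefl made up most of the DVC IP sum. Of the 7, only Nefl, Snap25 and Stmn2 were called higher in DVC IP, and Syt1 and Rbfox3 had lower medians there than in input. The part of these markers in the regional difference was not tested. A lower input level in DVC than in MBH also raises the difference, and that part was not tested either.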

How the results depend on the processing

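Across the other settings tried the DVC count of 13 members higher and 1 lower in IP was 10 to 16 higher, except with a replicate block on treatment and number (6 higher). DESeq2 gave 3 lower and RLE 2 lower. Within library sets a, b and c the counts were 23, 0 and 6 higher and 0, 0 and 0 lower, with 16.9%, 0.138% and 5.86% of all genes called. Leaving out 1 library gave 13 to 19 higher and 1 to 2 lower. In MBH the 0 lower became 1 with DESeq2 and 2 without the libraries under 12000 genes, and stayed 0 to 0 with 1 library left out. Of all genes, 0.452% were called in MBH as reported, 10.6% with DESeq2 and 1.81% without those libraries. The regional difference, 10 higher and 0 lower, became 6 higher and 1 lower with DESeq2, 2 with RLE, 5 without the filter, 3 with the replicate block and 22 without the libraries under 12000 genes. Of all genes, 4.39% were called as reported, 3.32% with RLE and 1.03% with the replicate block. The shares of the other settings are not given here, so their counts, 22 among them, are not a result about the members alone. Leaving out the 4 libraries of 1 treatment and number gave 2 to 9 higher and 0 to 0 lower, and single libraries were not left out of this fit. Between the inputs, 1 higher became 3 with DESeq2 and with RLE, and 1 library left out gave 1 to 3 higher and 13 to 18 lower. DESeq2 called 1 member for AC3174 in DVC IP, for the non-additivity in DVC IP and for the combination in MBH input, where edgeR called 0, and edgeR called 0 to 0 in all drug comparisons with a library left out. The cause of these changes was not tested. The fits within the sets also held fewer samples.

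Over all 36 members, the sign turned against the full fit in DVC for 4 in set a, 15 in set b (among them the called Psma5, Psmd6 and Psmd8) and 6 in set c, and in MBH for 3, 1 and 9. In other settings of these fits, at most 2 members turned. The values that follow are only for members called in the same region or given by library under the rule above. In DVC set b, Psma2 (-0.14), Psma5 (-0.056), Psmb4 (-0.31), Psmd4 (-0.11), Psmd6 (-0.31) and Psmd8 (-0.078) turned. In set a Psmb9 (2.02), Psmd11 (0.42) and Psmd2 (0.18) did, and in set c Psmb9 (0.11), Psmd11 (0.24) and Psmd5 (0.14). Without the library under 12000 genes, Psmd2 (0.076) turned. In MBH those that turned were Psma7 (0.10 with DESeq2 and RLE, 0.19 in set a), Psmb7 (0.092 with DESeq2 and RLE, 0.32 in set a, 0.26 without the libraries under 12000 genes), Psmb10 (-0.21 in set a, -0.28 in set b, -0.051 without those libraries), and in set c Psmb9 (0.80) and Psmd14 (0.036). The other members that turned in MBH set c, among them Psma4 (0.16) and Psmd1 (0.26), fell outside this choice. With 1 library left out, Psmd11 (-0.040 to 0.13) and Psmd2 (-0.095 to 0.076) in DVC, and Psma7 (-0.12 to 0.060), Psmb7 (-0.10 to 0.12) and Psmb9 (-2.81 to 0.43) in MBH, took both signs, and no called member did.

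Across treatments, deviations of libraries with the same number correlated above 0.1 in 14 of 18 pairs in MBH IP (median r 0.16). Elsewhere this held in 2 to 4 of 18 pairs. What libraries of the same number share was not tested. The replicate block changed no count of calls among the drug comparisons. Psmb8 and Psmb9 lay at a few CPM or at 0 also in the DVC IP libraries, which are the deepest (102116189 counts or more), so their log2 values carry little information.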

Other observations

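Proteasome transcripts are short for the transcriptome, with a median main-transcript length of 1540.5 bases over the members against 2957 over the genes tested in DVC that had a length. Across the 36 members, the Spearman correlation of this length with the log2 difference of IP against input in DVC was -0.41, and across all genes it was -0.17. These are correlations across genes measured in the same libraries, given as a description, and genes are not independent replicates.

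The median correlation of deviations from the group mean over pairs of the 33 members was 0.23 in DVC input, 0.56 in DVC IP, 0.41 in MBH input and 0.52 in MBH IP, again as a description with all members sharing the same 12 libraries.

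Psmd13 and Sirt3 share 329 bases of exon on opposite strands and had like median counts (8184.5 and 8804.5), so without strand their shared reads cannot be told apart. Psmd13 stood at 0.00926 CPM in DVC IP AC3174 3, against 58.8 CPM or more in the other 11 DVC IP libraries.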
